A study of Mus musculus with 4 samples.

Results

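The genes described are those of nucleotide synthesis: the enzymes that build purines and pyrimidines from small precursors, turn them into deoxynucleotides for DNA, or recycle free bases and nucleosides. They were 34 listed genes, chosen by name for their place in the pathway, with earlier results of these data known. A gene was measured if at least 1 probe set, a group of short oligonucleotides reporting on 1 transcript, was annotated to it alone, under its current or an older symbol, and the probe set with the highest mean over the 4 arrays stood for it. Of the 34, 33 were measured, among 18193 genes in all. Impdh2 had no such probe set, so no expression value is given for it.

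Expression was measured on Affymetrix arrays in crypt epithelium of the mouse jejunum, with 2 arrays of Yy1 knockout mice and 2 of control mice, which the labels call biological replicates. The knockout mice carried YY1f/f, floxed alleles of the zinc finger transcription factor YY1, together with Vil-Cre-ERT2, a Cre recombinase active only in the presence of tamoxifen and driven by the Villin promoter, which works in the epithelium of the intestine. The treatment label, which is the same for all 4 samples, gives tamoxifen for 4 days, in a wording that can be read as covering the control mice or only the floxed ones. The labels do not give the controls' Yy1 alleles or say whether they carried Vil-Cre-ERT2, so an effect of Cre, and one of tamoxifen if the controls had none, cannot be told apart from that of the loss of Yy1. The strain of all 4 samples was C57BL/6J enriched, and the animals' age, the number of mice behind each array and the promoter's reach into each crypt cell type were not given. Values are linear intensities as the authors deposited them, and differences are log2(intensity + 16), knockout minus control, ± the standard error (SE) of a limma fit over all genes, with n = 2 arrays per group throughout. A gene was called higher or lower at a Benjamini-Hochberg adjusted p under 0.05 over all genes.

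Purines are assembled on a sugar phosphate, phosphoribosyl pyrophosphate (PRPP), in a chain of reactions that ends in inosine monophosphate (IMP), from which separate branches lead to AMP and GMP. Pyrimidine rings are made first and joined to PRPP afterwards, giving UMP and then CTP. Ribonucleotide reductase turns ribonucleotides into deoxynucleotides, and thymidylate is made from dUMP. Cells that divide fast, as those of the intestinal crypt do, depend on these routes for DNA and for the RNA of ribosomes, while the recycling of bases and nucleosides, called salvage, spares the costly synthesis.

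All 4 probe sets of the deleted gene, Yy1, fell in the knockout, with log2 differences between -4.31 and -1.37. Whether those probe sets lie in the deleted part was not analysed here. Median intensities of the 4 arrays lay between 139 and 143, and the median of 27 control probe sets for Bacillus genes, taken as background, between 31.9 and 35.6. As a sign of RNA quality, Gapdh's 3' control probe set exceeded its 5' one by a log2 value of 1.68 ± 0.044 in knockout and 1.42 ± 0.032 in control arrays (SD). For Actb the same value was 0.31 ± 0.026 in knockout and 0.26 ± 0.026 in control arrays, a smaller gap between the groups. Markers of crypt epithelium were present in all 4 arrays, for example the Paneth cell gene Lyz1 with 10761 and 11538 in knockout and 11672 and 12081 in control arrays, and the goblet cell gene Muc2 with 3051 and 3514 in knockout and 3716 and 4167 in control arrays. Lgr5, the stem cell marker, was dim, at 63.2 and 59.5 in knockout and 69.2 and 66.3 in control arrays. Of markers of the other crypt cells, 1 of 6 for stem cells, 2 of 6 for goblet cells and 2 of 5 for tuft cells were lower, beside 10.9% of all genes. The stem cell gene was Olfm4, with 3662 and 3332 in knockout and 5463 and 5279 in control arrays (log2 -0.62 ± 0.10). Those of goblet cells were Clca1 (-0.47 ± 0.11) and Fcgbp (-0.44 ± 0.12), and those of tuft cells Dclk1 (-0.57 ± 0.11) and Pou2f3 (-0.45 ± 0.11). Of the Paneth cell markers 1 of 4 was higher, and of 6 enteroendocrine markers 1 was higher and 1 lower. Over all genes 13.4% were higher. Summed intensities of 7 mesenchyme markers were 1111 and 903 in the knockout arrays, against 1167 and 1282 in the control arrays, with 2 of them lower and none at the floor, an intensity of 1 or less. That floor lies far below the background medians, so a marker above it need not have been detected. Summed intensities of 12 immune cell markers were 10623 and 11669 in the knockout arrays, against 11374 and 11591 in the control arrays, with none at the floor. Lyz2 made up most of each sum, with 7285 and 7977 in knockout and 7550 and 7845 in control arrays. The sums therefore say little about the other immune markers, of which 2 were lower, Ptprc (-0.42 ± 0.12) and Cd3g (-0.69 ± 0.11), and none higher. What part the differences in RNA quality and in these other cells have in the results below was not tested.

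Nucleotide synthesis genes were higher in knockout crypts at most steps of purine assembly, at the entry and the end of the pyrimidine route, and in deoxynucleotide supply. Of 33 measured genes, 16 rose and 3 fell, 19 in all, beside 24.4% of all genes called in either direction. That is 48.5% higher and 9.09% lower, beside 13.4% higher and 10.9% lower over all 18193 genes. The median log2 difference of the 33 genes was 0.42, against 0.01 for all genes. Both knockout arrays lay above both control arrays in 22 genes and below them in 7, beside 32.7% and 29.3% of all genes. The groups overlapped in 4 genes, while 62% of all genes had groups that did not overlap. The 3 genes that fell were Prps1, Dhodh and Ctps2. The counts moved with 1 array left out, and those over all genes moved too. In these fits the median log2 difference of the 33 genes lay between 0.29 and 0.44. Without knockout replicate 1, or without control replicate 2, 10 genes rose and 1 fell. Without control replicate 1 13 rose and 1 fell, and without knockout replicate 2 17 rose and 2 fell.

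**Figure D1:**
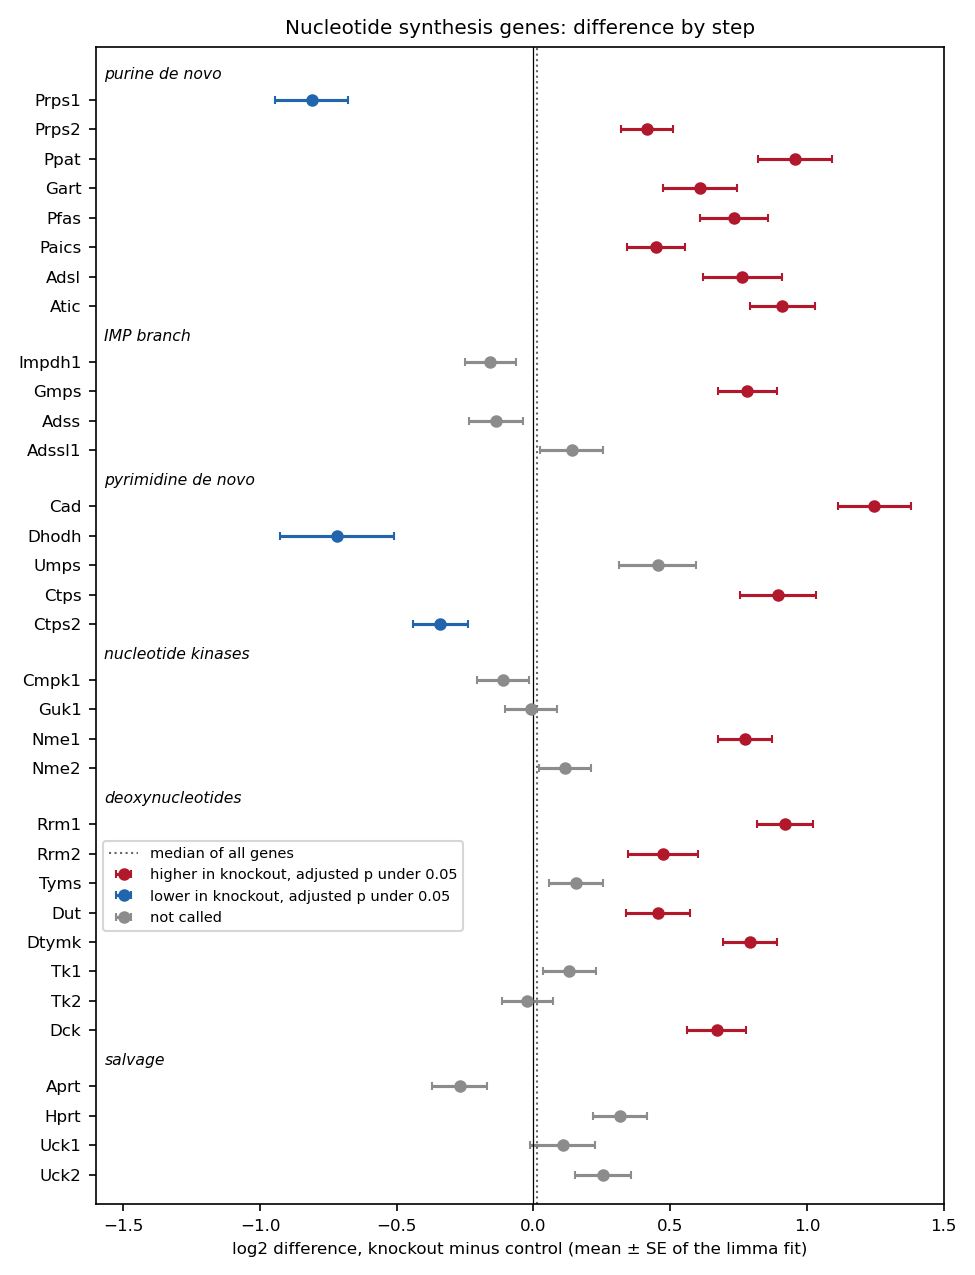
Log2 difference of each measured nucleotide synthesis gene, knockout minus control, grouped by step of the pathway. Points are the limma estimates, bars are ± SE (n = 2 arrays per group), red and blue mark the 16 genes called higher and the 3 called lower, and the dotted line is the median of all genes at 0.01.

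**Figure D2:**
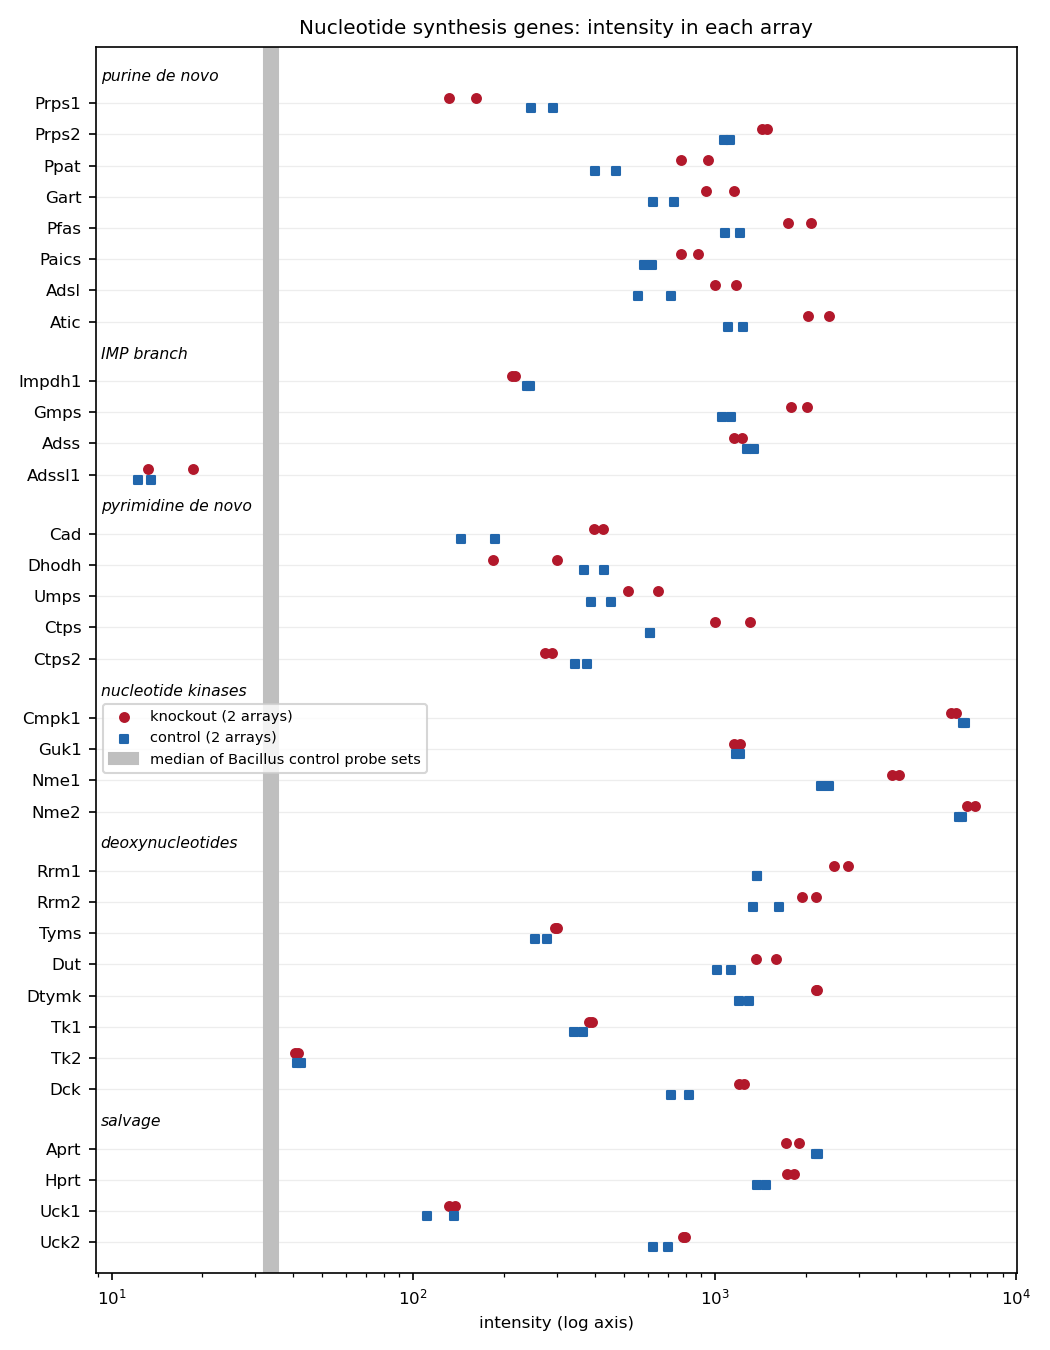
Intensity of each measured gene in each array, on a log axis, with the 2 knockout arrays as red circles above the 2 control arrays as blue squares. The grey band spans the background medians, 31.9 to 35.6; Adssl1 lies below it and Tk2 just above it, and the positions of different genes are not comparable since each probe set has its own affinity.

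Promoter windows from RefSeq (build GRCm38.p6), reaching from 250 bases before to 50 after the annotated start of a gene, were available for 32 of the 34 genes. They were searched on both strands for 3 short motifs: CACGTG, the E-box that Myc and related factors bind, TTTNGCGC, a form of the E2F site, and AANATGGC, a form of the YY1 site. None of the matches overlapped a match to another motif. The YY1 form was found in 3 genes, Prps1, Rrm1 and Nme1. Among the 31 measured genes with a window that is 9.68%, beside 8.09% of all 14368 measured genes with a window and 6.05% of all 32851 windows. The E-box was found in 6 genes, Atic, Dtymk, Impdh2, Nme1, Paics and Tyms. Without Impdh2, which was not measured, that is 5 of 31 or 16.1%, beside 10.3% of all measured genes and 7.15% of windows. The E2F form was in none of the 32, beside 2.33% of all measured genes and 1.38% of windows. These are matches of letters and say nothing about binding in these crypts. The windows below are those of Rrm1 and Prps1, which carry the YY1 form and moved in opposite directions with the probe sets used, and of Atic and Paics, purine genes with an E-box. All are on the plus strand, 5′ to 3′, with matches in capitals.
Rrm1: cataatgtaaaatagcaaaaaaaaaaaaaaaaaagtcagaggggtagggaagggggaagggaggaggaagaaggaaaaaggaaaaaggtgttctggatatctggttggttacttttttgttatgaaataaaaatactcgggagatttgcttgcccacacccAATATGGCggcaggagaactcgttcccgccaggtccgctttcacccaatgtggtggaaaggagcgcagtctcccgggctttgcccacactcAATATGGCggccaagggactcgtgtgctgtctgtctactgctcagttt
Prps1: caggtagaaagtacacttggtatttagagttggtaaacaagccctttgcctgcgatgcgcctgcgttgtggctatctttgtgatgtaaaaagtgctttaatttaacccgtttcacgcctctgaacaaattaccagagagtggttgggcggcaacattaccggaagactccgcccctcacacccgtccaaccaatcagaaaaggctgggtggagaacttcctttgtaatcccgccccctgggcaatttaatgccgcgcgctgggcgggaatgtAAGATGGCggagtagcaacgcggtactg
Atic: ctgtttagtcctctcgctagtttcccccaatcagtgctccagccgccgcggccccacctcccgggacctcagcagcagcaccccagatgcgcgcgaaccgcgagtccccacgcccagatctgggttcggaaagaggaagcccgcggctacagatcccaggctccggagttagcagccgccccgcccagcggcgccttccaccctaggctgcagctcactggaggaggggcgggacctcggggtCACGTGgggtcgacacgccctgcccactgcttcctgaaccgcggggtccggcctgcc
Paics: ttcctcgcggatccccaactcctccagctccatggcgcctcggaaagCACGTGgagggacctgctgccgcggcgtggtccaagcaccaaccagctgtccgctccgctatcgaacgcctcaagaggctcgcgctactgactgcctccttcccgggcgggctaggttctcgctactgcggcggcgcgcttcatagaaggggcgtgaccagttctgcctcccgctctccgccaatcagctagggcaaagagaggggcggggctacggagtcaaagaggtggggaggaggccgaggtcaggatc
The Rrm1 window (chr7:102441445-102441744) holds the YY1 form 2 times, beginning 89 bases before the start and at base 3 of the transcript. In the Prps1 window (chrX:140456353-140456652) it begins at base 23 of the transcript. The E-box of Atic (chr1:71556906-71557205) begins 7 bases and that of Paics (chr5:76951052-76951351) 203 bases before the start.

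Of the 8 purine synthesis genes 7 rose and 1, Prps1, fell, beside 13.4% higher and 10.9% lower over all genes. Their median log2 difference was 0.67. All of the enzymes from the committed step to IMP were among those that rose. Ppat, whose product commits PRPP to the purine route, had 950.5 and 773 in the knockout arrays, against 470.2 and 400.4 in the control arrays. Both knockout arrays were well above both controls, a 1.94-fold rise (log2 0.96 ± 0.14, limma adjusted p = 0.00362). Another Ppat probe set rose by 1.24 ± 0.16. The dimmest, at 1.58 and 4.22 in knockout and 2.24 and 3.15 in control arrays, lay below the background medians. Ppat lost its call only in the setting that used this dimmest probe set. Gart, a single protein for several middle steps, had 1155 and 939 in the knockout arrays, against 733 and 625 in the controls (log2 0.61 ± 0.14, adjusted p = 0.0177). Pfas, which adds an amide nitrogen from glutamine, had 2092 and 1755 in knockout and 1217 and 1080.1 in control arrays. The groups did not overlap for either gene, and the log2 difference of Pfas was 0.73 ± 0.12 (adjusted p = 0.00646).

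Paics, which carries out the carboxylation and the aspartate step that follow, had 881 and 774 in the knockout arrays, against 618 and 584 in the controls, one of the smaller rises of the chain (log2 0.45 ± 0.11, adjusted p = 0.0231). Paics and Ppat lie head to head on chromosome 5 in GRCm38.p6, Paics on the plus strand from 76951302 and Ppat on the minus strand to 76951578, so that the annotated 5′ ends of the genes overlap by 277 bases, and both rose. Adsl, the lyase that releases fumarate here and again on the way to AMP, had 1178 and 999 in knockout and 715 and 558 in control arrays (log2 0.76 ± 0.15, adjusted p = 0.0101). Atic, which closes the purine ring to give IMP, had 2389 and 2042 in the knockout arrays, against 1237 and 1103 in the controls. Its 1.88-fold rise (log2 0.91 ± 0.12, adjusted p = 0.00277) was matched by its other probe set, with 1757 and 1466 in knockout and 734 and 707 in control arrays (log2 1.14 ± 0.12). In all 8 purine genes the groups did not overlap, beside 62% of all genes. Calls of Ppat, Adsl, Paics and Gart were not kept in all of the 13 alternative settings: Ppat kept its call in 12, Adsl in 11, and Paics and Gart in 9 each.

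The PRPP synthetases, which supply the sugar phosphate for both routes, gave mixed signals. Prps2 rose, with 1495 and 1437 in the knockout arrays, against 1070.3 and 1119 in the controls (log2 0.42 ± 0.10, adjusted p = 0.0201, kept in 10 of 13 settings). Prps1 had 162 and 131 in knockout and 291 and 246 in control arrays with the probe set annotated to it alone, 1.75-fold lower in the knockout (log2 -0.81 ± 0.13, adjusted p = 0.00594). A brighter probe set annotated to both Prps1 and the related Prps1l3 went the other way. It had 912 and 760.1 in the knockout arrays, against 598 and 558 in the controls (log2 0.51 ± 0.12, adjusted p over all probe sets = 0.0235). The direction of Prps1 therefore depends on the probe set, and its fall is not settled by these arrays. Prpsap1 and Prpsap2, whose proteins associate with the synthetases and are thought to restrain them, both fell: Prpsap1 had 1485 and 1829 in knockout and 2748 and 2869.6 in control arrays (log2 -0.76 ± 0.12, adjusted p = 0.00565). Prpsap2 had 88.4 and 96.6 in the knockout arrays, against 178 and 164 in the controls (log2 -0.79 ± 0.10, adjusted p = 0.00273).

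Beyond IMP, the last enzyme of the GMP branch rose and the genes of the AMP branch were not called. Gmps, which aminates XMP to GMP, had 2017 and 1784 in the knockout arrays, against 1136 and 1059 in the controls, a 1.72-fold rise (log2 0.78 ± 0.11, adjusted p = 0.00331). Each of its other 2 probe sets was called higher too, by 0.84 ± 0.13 and 0.76 ± 0.13. Impdh1, the less abundant form of the enzyme before it in most dividing cells, had 217 and 213 in knockout and 239 and 245 in control arrays (log2 -0.16 ± 0.09, adjusted p = 0.288). Adss, which starts the AMP branch, had 1231 and 1155 in the knockout arrays, against 1350.3 and 1276 in the controls (log2 -0.14 ± 0.10, adjusted p = 0.386). In both genes the knockout arrays lay below the controls by a small margin that did not pass the test. Adssl1, the muscle form of that enzyme, was at 18.6 and 13.2 in knockout and 13.5 and 12.2 in control arrays, below the background medians, so that no level can be given for it.

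On the pyrimidine route Cad and Ctps rose, and Dhodh and Ctps2 fell. Cad, the protein that carries out the first reactions up to the dihydroorotate ring, rose most of all measured nucleotide synthesis genes, with 425 and 397 in the knockout arrays, against 187 and 144 in the controls (2.37-fold, log2 1.25 ± 0.13, adjusted p = 0.00153). Its other 2 probe sets rose by 0.996 ± 0.11 and 0.97 ± 0.14. Dhodh, the next enzyme, sits in the inner membrane of mitochondria and passes electrons to ubiquinone of the respiratory chain. It had 184 and 299.96 in the knockout arrays, against 368 and 431 in the controls (log2 -0.72 ± 0.21, 1.65-fold lower, adjusted p = 0.0443). The knockout arrays were both below the controls but far apart, and the call held in only 6 of 13 settings. Its second probe set had 139 and 169 in knockout and 217 and 193 in control arrays (log2 -0.38 ± 0.13, adjusted p over all probe sets = 0.0734).

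Umps, which completes UMP, had 651 and 515 in the knockout arrays, against 451 and 388 in the controls, a difference of 0.45 ± 0.14 that missed the threshold (adjusted p = 0.0553). One of its dimmer probe sets passed it, with 159.7 and 167 in knockout and 114 and 118 in control arrays (log2 0.44 ± 0.10, adjusted p over all probe sets = 0.0200). The 2 CTP synthases, which aminate UTP to CTP, moved in opposite directions. Ctps had 1312 and 1003 in the knockout arrays, against 612 and 608 in the controls (1.86-fold, log2 0.89 ± 0.14, adjusted p = 0.00489). Ctps2 had 288 and 274 in knockout and 376 and 345 in control arrays (log2 -0.34 ± 0.10, adjusted p = 0.0467). The fall of Ctps2 was kept in only 4 of 13 settings, and its 2 dimmer probe sets gave -0.17 ± 0.10 and 0.14 ± 0.10, neither of them called. The rise of Ctps was kept in 13 of 13.

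Of the general nucleotide kinases, which raise monophosphates to di- and triphosphates, Nme1 rose alone. It had 4093 and 3876 in the knockout arrays, against 2394 and 2255 in the controls (1.71-fold, log2 0.77 ± 0.10, adjusted p = 0.00254). Nme2, a close relative, had 7274 and 6861 in knockout and 6601 and 6444 in control arrays (log2 0.11 ± 0.10, adjusted p = 0.458). The 2 genes are so alike that their probe sets may share targets. Cmpk1, the UMP and CMP kinase, had 6091 and 6321 in the knockout arrays, against 6673 and 6736 in the controls (log2 -0.11 ± 0.09). Guk1, the GMP kinase, was at 1210.2 and 1155 in knockout and 1172 and 1209 in control arrays, overlapping (log2 -0.01 ± 0.10). The adjusted p was 0.462 for Cmpk1 and 0.962 for Guk1.

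Of the 8 genes of deoxynucleotide supply 5 rose and none fell, beside 13.4% higher and 10.9% lower over all genes. Rrm1, the large subunit of ribonucleotide reductase, had 2765 and 2492 in the knockout arrays, against 1377 and 1382 in the controls. The controls were nearly identical and both knockout arrays far above them, a 1.89-fold rise (log2 0.92 ± 0.10, adjusted p = 0.00166). The second Rrm1 probe set rose by 1.04 ± 0.12, while the dimmest, with 104 and 79.6 in knockout and 89.8 and 94.9 in control arrays, gave -0.01 ± 0.13. Rrm2, the small subunit made in S phase, had 2170.1 and 1949.6 in the knockout arrays, against 1631 and 1338 in the controls (log2 0.47 ± 0.13, adjusted p = 0.0343, kept in 10 of 13 settings). Both of its other probe sets rose, by 0.47 ± 0.10 and 0.57 ± 0.12.

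The genes around thymidylate differed among themselves. Dtymk, the kinase of dTMP, had 2188 and 2172 in the knockout arrays, against 1300.1 and 1205 in the controls (1.73-fold, log2 0.79 ± 0.10, adjusted p = 0.00233), and all 3 of its probe sets were called higher. Dut, which removes dUTP and so yields the dUMP for thymidylate, had 1594 and 1373 in knockout and 1132 and 1020.2 in control arrays (log2 0.46 ± 0.12, adjusted p = 0.0290, kept in 8 of 13 settings). Its dimmer probe set gave 0.07 ± 0.11. Tyms, the thymidylate synthase, had 295 and 301 in the knockout arrays, against 254 and 278 in the controls with the brightest probe set of its own (log2 0.16 ± 0.10, adjusted p = 0.325). A probe set annotated to both Tyms and its pseudogene Tyms-ps was several times brighter, with 1847 and 1624 in knockout and 1021 and 968 in control arrays (log2 0.79 ± 0.11, adjusted p over all probe sets = 0.00370), and the dimmest one of Tyms alone was also called higher, by 0.61 ± 0.14. Whether Tyms rose thus depends on the probe set.

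Of the deoxynucleoside kinases, Dck, which phosphorylates deoxycytidine and purine deoxynucleosides, had 1252 and 1208 in the knockout arrays, against 821 and 717 in the controls (1.59-fold, log2 0.67 ± 0.11, adjusted p = 0.00551). All 3 of its probe sets were called higher. Tk1, the thymidine kinase of dividing cells, had 383 and 393 in knockout and 341 and 365 in control arrays (log2 0.13 ± 0.10, adjusted p = 0.399). Its groups did not overlap, by a narrow gap that did not pass the test. Tk2, the mitochondrial thymidine kinase, was at 40.6 and 41.4 in knockout and 41.3 and 42.5 in control arrays, near the background medians (log2 -0.02 ± 0.09).

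None of the 4 salvage genes was called by limma, and 3 had an unadjusted p under 0.05, beside 6450 of all 18193 genes. Hprt, which recycles hypoxanthine and guanine, had 1831 and 1735 in the knockout arrays, against 1382 and 1474 in the controls (log2 0.32 ± 0.10, adjusted p = 0.0569). Its knockout arrays were both above the controls. The difference passed the threshold with a pseudocount of 64 and with each array scaled to the same median. It also passed with dim genes left out, with a trended and robust prior, and with all probe sets averaged. Hprt has 1 probe set, so leaving out dim genes and averaging probe sets did not change its own values. Aprt, which recycles adenine, had 1727 and 1896 in knockout and 2173 and 2198 in control arrays (log2 -0.27 ± 0.10, adjusted p = 0.0982), while its other probe set gave 0.12 ± 0.11. Uck2, a uridine and cytidine kinase, had 784 and 799 in the knockout arrays, against 698 and 625 in the controls (log2 0.25 ± 0.10, adjusted p = 0.122). Uck1, its relative, was at 137 and 131 in knockout and 137 and 111 in control arrays, which overlapped (log2 0.11 ± 0.12).

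The 33 genes had 73 probe sets of their own, of which 33 were called higher and 2 lower in a fit of each of the 45037 probe sets, beside 10.9% higher and 9.09% lower among all of these. In that fit, which tests more features, Ctps2 was no longer called (adjusted p = 0.0564). Of the 19 called genes, 15 had more than 1, and in 10 of these another was called the same way. In the other 5, Gart, Paics, Dut, Dhodh and Ctps2, no second probe set was called. No called gene had a probe set of its own called the opposite way. The remaining called genes, Prps1, Pfas, Adsl and Ctps, rest on 1 probe set, so settings that change the probe set could not alter their values.

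**Figure D3:**
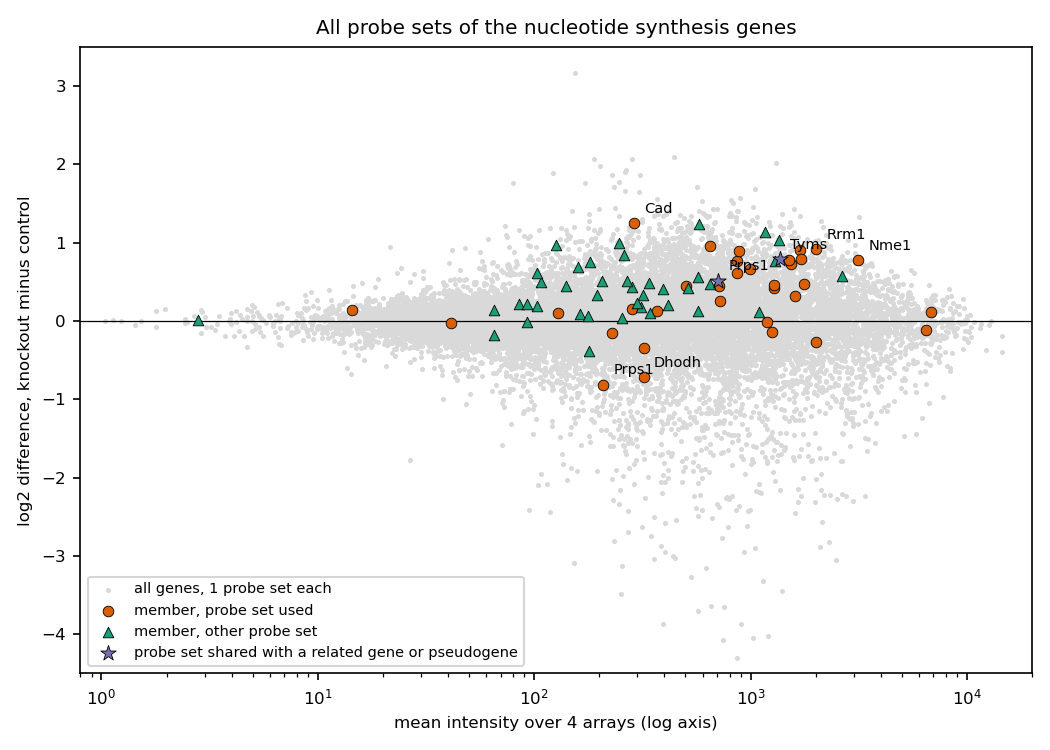
Log2 difference, knockout minus control, against the mean intensity over the 4 arrays (log axis) for all probe sets of the nucleotide synthesis genes, over all genes in grey. Circles are the probe sets used, triangles the others of the same genes, and stars the 2 probe sets shared with Prps1l3 or Tyms-ps; the star of Prps1 lies at 0.51 and its circle at -0.81.

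Other genes of nucleotide metabolism were called in both directions, 10 higher and 11 lower of 59 measured among 71 listed, with a median log2 difference of 0.01. That is 16.9% higher and 18.6% lower, beside 13.4% and 10.9% of all genes. Degradation genes were lower in 6 and higher in 1 of 22 (median -0.10), which is 27.3% lower and 4.55% higher. Cda, which deaminates cytidine, had 175 and 275 in the knockout arrays, against 1151 and 1195 in the controls (log2 -2.33 ± 0.19, adjusted p = 0.000710), the largest fall among all the nucleotide genes listed. Dpyd, which breaks down uracil and thymine, had 184 and 336 in knockout and 987 and 947 in control arrays (log2 -1.89 ± 0.24, adjusted p = 0.00250). Nt5e, the cell surface nucleotidase CD73, had 79.5 and 160.4 in the knockout arrays, against 335 and 489.5 in the controls (log2 -1.70 ± 0.29, adjusted p = 0.00676). For all 3 genes, knockout replicate 1 was the lower of the knockout arrays. The nucleotidase Nt5c3 rose, by 0.54 ± 0.11.

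Folate enzymes, which make the one-carbon units for purines and thymidylate, rose in 5 of 9 measured and fell in none (median 0.52). That is 55.6% higher, beside 13.4% of all genes. Shmt2, the mitochondrial serine hydroxymethyltransferase, had 1314 and 1136 in the knockout arrays, against 486 and 499 in the controls (log2 1.28 ± 0.11, adjusted p = 0.000812). The mitochondrial Mthfd2 and Mthfd1l rose by 1.04 ± 0.14 and 0.81 ± 0.12, and the cytosolic Mthfd1, which makes the formyl-folate used by Gart and Atic, by 0.77 ± 0.12. Shmt1, the cytosolic relative of Shmt2, rose by 0.52 ± 0.11 and is named here after its value was seen.

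Beside 13.4% of all genes called higher, genes that guard the deoxynucleotide pool rose in 3 of 7 and fell in none (median 0.39). They were Dctd (0.77 ± 0.14), which deaminates dCMP, Dctpp1 (0.51 ± 0.10), which hydrolyses dCTP, and Nudt1 (0.55 ± 0.10), which clears oxidised purine nucleotides. Of 16 further kinase and salvage genes 5 fell and 1 rose (median -0.10), beside 10.9% lower and 13.4% higher among all genes. Besides the synthetase partners Prpsap1 and Prpsap2, Adk, the adenosine kinase, fell by 0.51 ± 0.10 and Cmpk2, a mitochondrial kinase, by 0.74 ± 0.14. Uckl1, at -0.46 ± 0.11, and Nme6, at 0.56 ± 0.12, complete the count and are named after their values were seen. None of 5 nucleoside carriers was called by limma, and 1 had an unadjusted p under 0.05, beside 6450 of all 18193 genes. Transcription factors known to act on nucleotide genes were not called, and none of the 3 had an unadjusted p under 0.05: Myc had 658 and 853 in knockout and 828 and 926 in control arrays (log2 -0.22 ± 0.14, adjusted p = 0.327), E2f1 differed by 0.13 ± 0.12 and Atf4 by -0.03 ± 0.09.

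**Figure D4:**
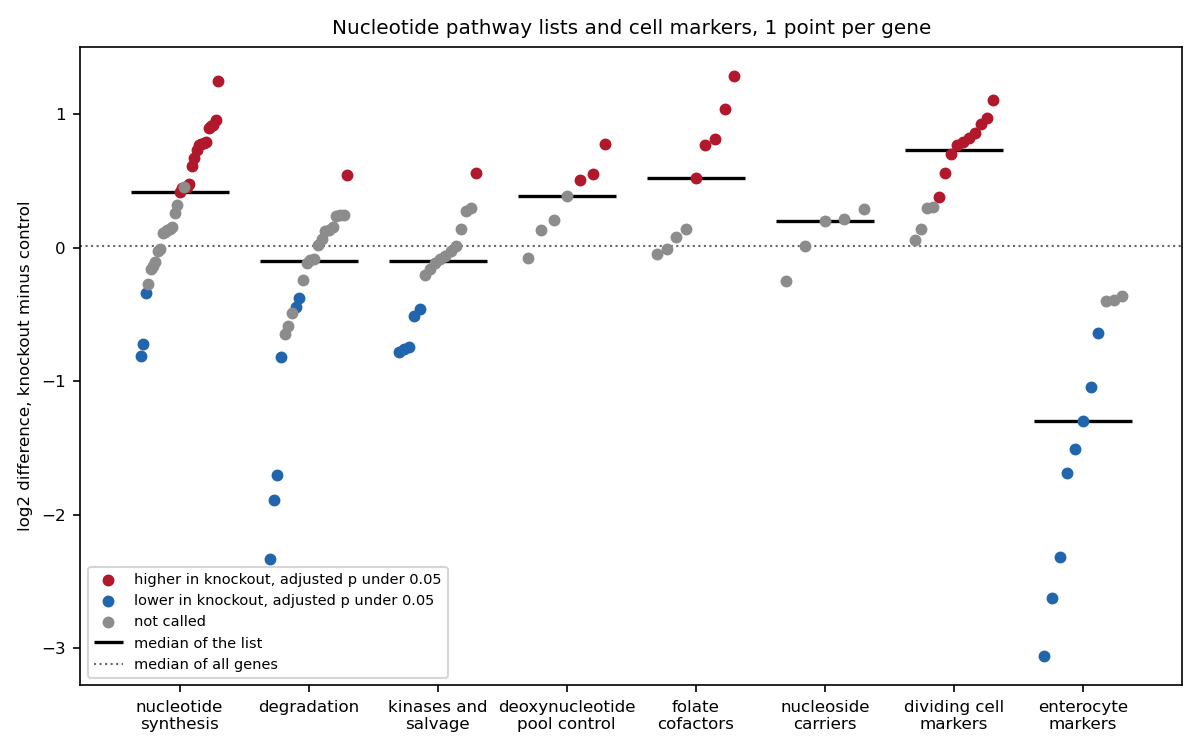
Log2 difference, knockout minus control, of each measured gene in the nucleotide lists and in the markers of dividing cells and enterocytes, 1 point per gene in rising order within a list. Black bars are the list medians, from -1.30 for enterocyte markers to 0.73 for dividing cell markers, and colours mark the calls.

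Markers of dividing cells moved in the same direction as most of the called nucleotide synthesis genes, and enterocyte markers in the opposite one. Of 14 measured markers of dividing cells 10 rose and none fell (median log2 0.73), beside 13.4% of all genes higher. Summed intensities of these markers were 32476 and 31068 in the knockout arrays, against 21705 and 21767 in the control arrays. The replication helicase gene Mcm4 rose by 1.10 ± 0.11 and the mitotic kinase gene Cdk1 by 0.97 ± 0.10, while Mki67 had 5820.5 and 5995 in knockout and 4646 and 4912 in control arrays and was not called (log2 0.31 ± 0.10, adjusted p = 0.0599). Of 11 enterocyte markers 8 fell and none rose (median log2 -1.30), beside 10.9% of all genes lower. Summed intensities of the enterocyte markers were 37806 and 55103 in the knockout arrays, against 76932 and 76034 in the control arrays. No marker of either list was at the floor. In whole crypt preparations, fewer cells of a type and less RNA per cell cannot be told apart, and the part that these shifts have in the nucleotide genes was not tested.

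Knockout arrays differed in degree. Against the mean of the controls, the median log2 difference of the 33 genes was 0.44 in knockout replicate 1 and 0.29 in knockout replicate 2, and 26 of the 33 genes were higher in replicate 1, beside 46% of all genes. All 8 purine genes were among them, with medians of 0.81 and 0.54. Enterocyte markers were lowest in the same array, with medians of -1.77 in knockout replicate 1 and -0.83 in replicate 2, while dividing cell markers stood at 0.75 and 0.71. Control arrays also differed, with 22 of the 33 genes higher in control replicate 1 than in control replicate 2, beside 44.4% of all genes. With 2 arrays in each group these orders are given as values, without a test.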

How the data were processed

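Per the labels' protocols, crypts were freed with EDTA and filtered, Trizol was used to extract RNA, and hybridisation of the biotin-labelled material followed the Affymetrix procedure. The deposited values are linear intensities, 1 per probe set and array. The summary method, background correction and scaling behind them are not given in the sources used here, nor are detection calls, so no depth can be stated and the number of arrays limits the precision. No further scaling was applied.

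GEO's platform annotation gave 1 gene for 34945 of the 45101 probe sets, several for 932 and none for 9160, beside 64 array controls. Symbols were updated through Entrez IDs to a RefSeq table of GRCm38.p6, which named 18032 of 18193 genes. A gene was represented by its probe set with the highest mean intensity. Tests used limma 3.58.1 in R 4.3.3 (lmFit, eBayes, knockout against control, no block) on log2(intensity + 16), which understates changes of dim genes, with 7.02 degrees of freedom and Benjamini-Hochberg adjustment over all genes. The fit was tested on simulated data. If the arrays of a group share an origin, p-values measure that narrower spread.

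The genes and lists were chosen with earlier results of these data known, by their place in the pathway. The rule for named genes takes every nucleotide synthesis gene, Yy1, and of each other list up to 4 called genes with the smallest p. The 3 regulators, and Lgr5, Lyz1, Lyz2, Muc2 and Mki67, are given as values. Alternatives were other pseudocounts (1 and 64), quantile or median scaling, only genes with a mean intensity above 100, a trended and robust prior, the dimmest probe set or all probe sets of a gene, the replicate number as a block, and each array left out. Fits of single probe sets and of the 2 shared ones were added after seeing the data.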

Additional observations from a re-analysis of the deposited data

How the results depend on the processing

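Of the 19 called nucleotide synthesis genes, 9 kept their direction and their side of the threshold in all 13 alternative settings that changed the processing or left out an array: Atic, Cad, Ctps, Dck, Dtymk, Gmps, Nme1, Pfas and Prps1. With 1 array left out, the genes called higher numbered 10 to 17 and those called lower 1 to 2, with a median log2 difference of 0.29 to 0.44, while over all genes 1139 to 2293 were higher and 1032 to 2046 lower, and of the other nucleotide pathway genes 6 to 11 were higher and 5 to 13 lower. These fits rest on fewer arrays and assume that the single array of a group varies like the others. With a pseudocount of 1, 1 nucleotide synthesis gene was called lower. When the dimmest probe set stood for a gene it was also 1, the median log2 difference was 0.21 and 6 other pathway genes were called lower. That setting also turned the sign of Ctps2 (0.14), Rrm1 (-0.014), Cmpk1 (0.21) and Aprt (0.12), none of them called with it. Cmpk1 was at 0.050 with all probe sets averaged. Guk1 turned to 0.00270 with median scaling, and with 1 array left out it ranged over -0.043 to 0.024, above 0 without knockout replicate 2 or control replicate 2. Uck1 ranged over -0.025 to 0.237, below 0 without control replicate 2. Of the 9 genes kept in all settings, Ctps, Pfas and Prps1 have 1 probe set of their own. The settings that change the probe set could therefore not alter their values. With the probe set shared with Prps1l3, Prps1 was at 0.51. The cause of these changes was not tested. With the replicate number as a block, 17 nucleotide synthesis genes were higher and 3 lower, the added call being Umps. The labels do not say that the numbers pair the arrays, and the deviations of same-numbered arrays correlated at 0.0986 across genes. Genes near the background, Adssl1 and Tk2, limit what can be said of their level.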
